A study of Homo sapiens with 24 samples.

Results

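The subject here is 7 genes for enzymes that sit on the outside of blood cells and serve as maturation markers: the peptidase genes ANPEP, DPP4 and MME, the NAD enzyme genes CD38 and BST1, and the nucleotide enzyme genes ENTPD1 and NT5E. They were named as a set by function with results of these arrays known, and the probe set of each was chosen by the highest mean level over all 24 arrays. That mean is the measured value the rule used and is given as a description only. Of 19775 genes with a probe set of their own, 10963 reached a log2 level of 4 in at least 3 arrays and were tested, and 5 of the 7 enzyme genes were among them. NT5E and MME did not reach that level in any array. ANPEP passed through 5 arrays, all of treated cells, so a difference between its treated and vehicle arrays was built into its passing.

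Gene expression was measured on Affymetrix arrays in 2 human leukemia lines. MV4-11 is a biphenotypic B myelomonocytic line with an MLL-AF4 fusion, kept in IMDM with serum, and MOLM-13, from acute myeloid leukemia, has an MLL-AF9 fusion and was kept in RPMI with serum. Cells received 3 uM EPZ004777, an inhibitor of the histone H3 lysine 79 methyltransferase DOT1L, or the vehicle alone, 0.1% DMSO. MV4-11 cells were taken on days 2, 4 and 6 and MOLM-13 cells on day 6, which gives 8 groups of 3 biological replicates. Every group carries its line's fusion, each fusion is represented by 1 line, and line and medium go together, so that they cannot be told apart.

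Ectoenzymes work on molecules outside the cell. ANPEP (CD13), DPP4 (CD26) and MME (CD10, neprilysin) trim peptides such as hormones and chemokines. ANPEP is a marker of granulocytes and monocytes, MME of early B cells and mature neutrophils, and DPP4 is best known on T cells and epithelia. CD38 and its neighbour BST1 (CD157) turn NAD into cyclic ADP-ribose and related messengers, CD38 being found on many progenitors, on plasma cells and on activated lymphocytes, and BST1 on monocytes and neutrophils. ENTPD1 (CD39) breaks extracellular ATP and ADP down to AMP, and NT5E (CD73) turns AMP into adenosine, which dampens immune cells.

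The promoters of ANPEP and CD38 are shown because these were the genes with the largest changes, in opposite directions and in different lines. RefSeq (GRCh38.p14) gives ANPEP 2 start sites on the minus strand, 8224 bases apart, of which the upstream one is known as the myeloid and fibroblast promoter and the downstream one as the epithelial promoter. The windows are the 250 bases before each start, chr15:89814853-89815102 and chr15:89806629-89806878. For CD38, on the plus strand, the window is chr4:15778078-15778327. Letters in capitals mark a match to TATAA or CCAAT on either strand, so that a match on the opposite strand reads as TTATA or ATTGG.
ANPEP upstream start: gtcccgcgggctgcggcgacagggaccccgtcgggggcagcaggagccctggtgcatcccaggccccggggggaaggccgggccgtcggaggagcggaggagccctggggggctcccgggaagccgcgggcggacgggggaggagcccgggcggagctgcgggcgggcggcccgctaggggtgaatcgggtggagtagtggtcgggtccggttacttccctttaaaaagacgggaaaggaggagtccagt
ANPEP downstream start: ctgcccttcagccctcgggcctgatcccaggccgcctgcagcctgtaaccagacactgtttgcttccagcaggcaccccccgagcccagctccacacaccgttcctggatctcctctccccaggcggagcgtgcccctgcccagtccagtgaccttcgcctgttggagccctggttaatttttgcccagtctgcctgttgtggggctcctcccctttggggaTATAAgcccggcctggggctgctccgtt
CD38 start: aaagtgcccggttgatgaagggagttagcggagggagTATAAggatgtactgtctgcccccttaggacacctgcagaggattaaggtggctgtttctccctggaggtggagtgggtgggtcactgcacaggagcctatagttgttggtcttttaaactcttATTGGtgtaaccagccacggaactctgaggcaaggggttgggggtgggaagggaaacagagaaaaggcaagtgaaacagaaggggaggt

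The downstream ANPEP window holds TATAA on the gene's strand, 28 to 24 bases before the start, while the upstream window holds none of the motifs searched. In the CD38 window TATAA lies 213 to 209 bases before the start and CCAAT, on the opposite strand, 89 to 85 bases before it. TATAA occurs on either strand in 19.0% and CCAAT in 32.0% of 34943 promoter windows of this length, and 3.7% hold TATAA on the gene's strand between 35 and 16 bases before the start. An interferon response motif, GAAA followed by any 2 bases and GAAA again, searched on both strands and found in 3.0% of the windows, is in none of the 14 windows of the 6 enzyme genes the table holds. No motif overlapped another in these windows. A match is a string of letters and not a site shown to be used, and which ANPEP start these cells used was not measured.

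The arrays give 1 intensity per probe set, background-adjusted and normalized with GCRMA by the submitters. All levels below are log2 of that intensity, and all changes are differences of these log2 levels, treated minus vehicle, ± the standard error of the limma model over 3 against 3 arrays. The lowest value of the table, 2.19, is shared by all 24 arrays and stands for a signal that is not measurable above background. Adjusted p-values are Benjamini-Hochberg values over all 10963 genes, and a gene is called at an adjusted p under 0.05. Median log2 signal over all probe sets ran from 2.60 to 2.81 per array. Arrays of a group correlated with each other at 0.9933 to 0.999 on average, lowest in treated MV4-11 cells on day 6. The number of arrays limits the precision.

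Of the 5 tested enzyme genes, 0 were called on day 2 in MV4-11 cells, where 12.5% of all genes were called, 8.83% higher and 3.69% lower. On day 4, 2 were higher and 1 lower (46.2% of all genes called, 25.2% higher and 21% lower), and on day 6, 3 were higher and 1 lower (62% called, 33.6% higher and 28.4% lower). In MOLM-13 cells on day 6, 3 were higher and 0 lower (65.8% called, 29.3% higher and 36.5% lower). On days 4 and 6 and in MOLM-13 cells a larger part of the 5 was called higher than of all genes. With only 5 genes, of which ANPEP passed the filter through treated arrays alone, the counts by themselves are not a result about these enzymes. Their median change was 0.24 on day 2, 0.43 on day 4, 0.52 on day 6 and 0.89 in MOLM-13 cells, beside medians of 0.02, 0.01, 0.04 and -0.03 over all genes. What sets the members apart from one another is the line and day of their changes and the level they started from.

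**Figure D1:**
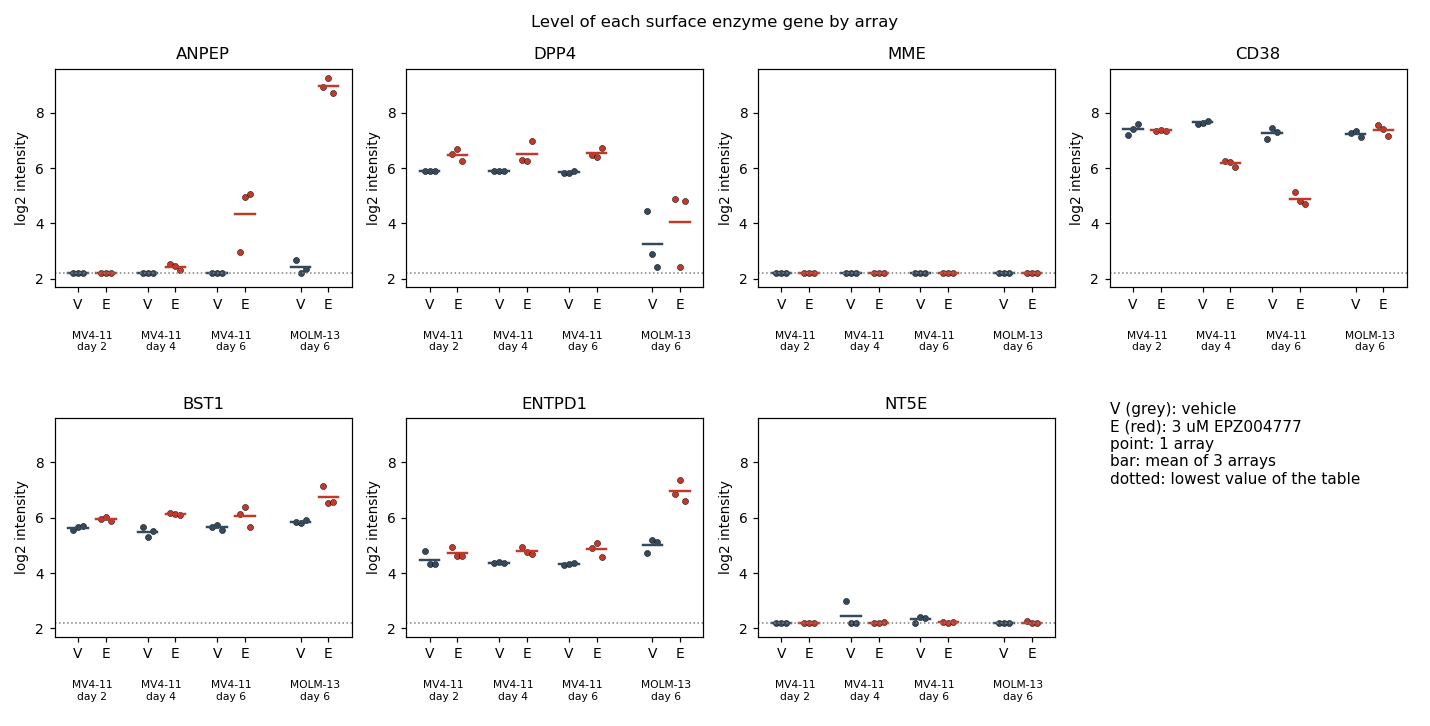
Level of each of the 7 genes (log2 intensity, vertical axis) in every array, by line, day and treatment, with vehicle in grey, EPZ004777 in red, a bar at the mean of 3 arrays and a dotted line at the lowest value of the table, 2.19. ANPEP reaches 8.73 to 9.26 in treated MOLM-13 cells and 2.97 to 5.07 in treated MV4-11 cells on day 6 and lies between 2.19 and 2.66 elsewhere, CD38 falls to 4.69 to 5.12 in treated MV4-11 cells on day 6, and MME lies at 2.19 in all arrays.

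Among the peptidases, ANPEP had a clear signal in treated MOLM-13 cells and a lower one in treated MV4-11 cells on day 6. In MOLM-13 cells its vehicle arrays were at 2.66, 2.20 and 2.35 and its treated arrays at 8.95, 9.26 and 8.73. All 3 treated arrays lay far above the vehicle arrays, which were at or close to the lowest value. The fitted difference was 6.57 ± 0.33 (limma adjusted p = 2.71e-12). Because the vehicle level is at the bottom of the scale, this size depends on the background adjustment and is given as a description, with no rank among other genes. As ANPEP passed the filter through treated arrays alone, its p-values after the filter, here and below, are no independent support for a difference. With no filter, over all 19775 genes, the adjusted p was 1.86e-10 in MOLM-13 cells and 9.11e-05 in MV4-11 cells on day 6.

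In MV4-11 cells the ANPEP signal appeared late. On day 2 the 6 arrays lay between 2.19 and 2.20 in both treatments. On day 4 the vehicle arrays were all at 2.20 and the treated arrays at 2.52, 2.46 and 2.32, a difference of 0.23 ± 0.33 that was not called (adjusted p = 0.602). The treated arrays were all above the vehicle arrays, but none reached the level of 4 used as the filter, and with only these 6 arrays in the fit the difference was called (adjusted p = 0.021). The vehicle arrays share the value 2.20, at the bottom of the scale, so that fit had no vehicle spread. Its call is no independent support for a rise on day 4. By day 6 the vehicle arrays were at 2.19, 2.19 and 2.20 and the treated arrays at 2.97, 4.94 and 5.07. The groups did not overlap, and within the treated group 1 array lay nearer to the vehicle level than to the other 2. The change was 2.13 ± 0.33 (adjusted p = 1.32e-05), and 1.76 to 2.81 with each array left out in turn. The standard error is shared over all 8 groups, several of which lie at the lowest value with almost no spread. The treated arrays of day 6 had a standard deviation of 1.17. With only the 6 arrays of that day in the fit, the adjusted p was 0.026.

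Both differences between these changes were tested. The ANPEP change on day 6 exceeded that on day 2 by 2.13 ± 0.46 (adjusted p = 0.00127), and on day 6 the change in MOLM-13 exceeded that in MV4-11 by 4.44 ± 0.46 (adjusted p = 2.17e-07). With only the arrays compared in the fit, these adjusted p-values were 0.0207 and 0.000252. Without inhibitor, the lines differed by 0.21 ± 0.33 in ANPEP on day 6, which was not called (adjusted p = 0.599). In the order of the 8 group means, treated MOLM-13 cells (8.98) and treated MV4-11 cells on day 6 (4.33) stood apart from each other and from the rest. The other 6 groups, from 2.43 down to 2.19, followed without separation between neighbours. ANPEP has 2 further probe sets, which stood at 2.19 in every array. As the mean of its 3 probe sets the ANPEP change was therefore 0.71 in MV4-11 cells on day 6 and 2.19 in MOLM-13 cells.

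DPP4 was the one peptidase of the set with vehicle arrays above the filter level of 4, and the higher levels were those of MV4-11. The vehicle arrays of MV4-11 were at 5.89, 5.89 and 5.89 on day 2, at 5.90, 5.89 and 5.89 on day 4 and at 5.84, 5.82 and 5.89 on day 6. MOLM-13 vehicle arrays were at 4.46, 2.88 and 2.43. Every MOLM-13 array was below every MV4-11 array, and the line difference on day 6 was -2.59 ± 0.48 (adjusted p = 0.000104). By the probe sets 203716_s_at and 211478_s_at it was smaller, at -1.67 (adjusted p = 0.000125) and -0.68 (adjusted p = 0.0025). Of the 24 arrays, 6 shared the value 5.89, so the spread among MV4-11 vehicle arrays is narrower than that of the treated arrays. Whether 5.89 is a measured level or a product of the background adjustment was not tested.

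By the main probe set, every treated MV4-11 array had a higher DPP4 level than every vehicle array of its day. Treated arrays were at 6.52, 6.68 and 6.25 on day 2, at 6.30, 6.24 and 6.99 on day 4 and at 6.45, 6.42 and 6.71 on day 6. Treated and vehicle arrays did not overlap on any day, as was the case for 38.9%, 59.1% and 64.8% of all genes. The changes were 0.59, 0.61 and 0.68, each ± 0.48, and none was called (adjusted p = 0.526, 0.323 and 0.235). In MOLM-13 cells treated arrays were at 4.87, 2.43 and 4.82, which overlapped the vehicle arrays (0.78 ± 0.48, adjusted p = 0.162). Leaving out treated replicate 2 gave a call (1.59, adjusted p = 0.000915), and so did leaving out vehicle replicate 1 (1.39, adjusted p = 0.0136). The standard error is shared over all 8 groups and includes the wide MOLM-13 arrays. With only the 6 arrays of each comparison in the fit, the DPP4 change was called in MV4-11 cells on day 2 (adjusted p = 0.0227) and on day 6 (adjusted p = 0.00213), and missed the threshold on day 4 (adjusted p = 0.0545). These fits lean on the narrow spread of the vehicle arrays, so their calls are not firm.

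The other 2 DPP4 probe sets gave larger early changes. By 203716_s_at the vehicle arrays on day 2 were at 3.96, 4.10 and 4.42 and the treated arrays at 5.49, 5.82 and 6.01, a change of 1.62 (adjusted p = 0.00176). On day 4 this probe set changed by 1.5 (adjusted p = 0.000605), and on day 6 by 0.40, which was not called (adjusted p = 0.287). By 211478_s_at the changes were 1.32 on day 2 (adjusted p = 4.03e-05), 1.5 on day 4 (adjusted p = 9.85e-07) and 0.62 on day 6 (adjusted p = 0.0054). This probe set reached the filter level in 7 arrays, all of treated MV4-11 cells. Its p-values are therefore no independent support for a difference. So on days 2 and 4 all 3 probe sets of DPP4 were higher in treated MV4-11 cells. Past the threshold were 203716_s_at and, with that limit, 211478_s_at. The effect on day 6 minus that on day 2 was -1.22 (adjusted p = 0.0361) and -0.70 (adjusted p = 0.0321) by these 2 probe sets, against 0.09 by the main one, so no course over time can be given for DPP4. In MOLM-13 cells they disagreed, at 0.90 (adjusted p = 0.0173) and -0.03 (adjusted p = 0.895).

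**Figure D2:**
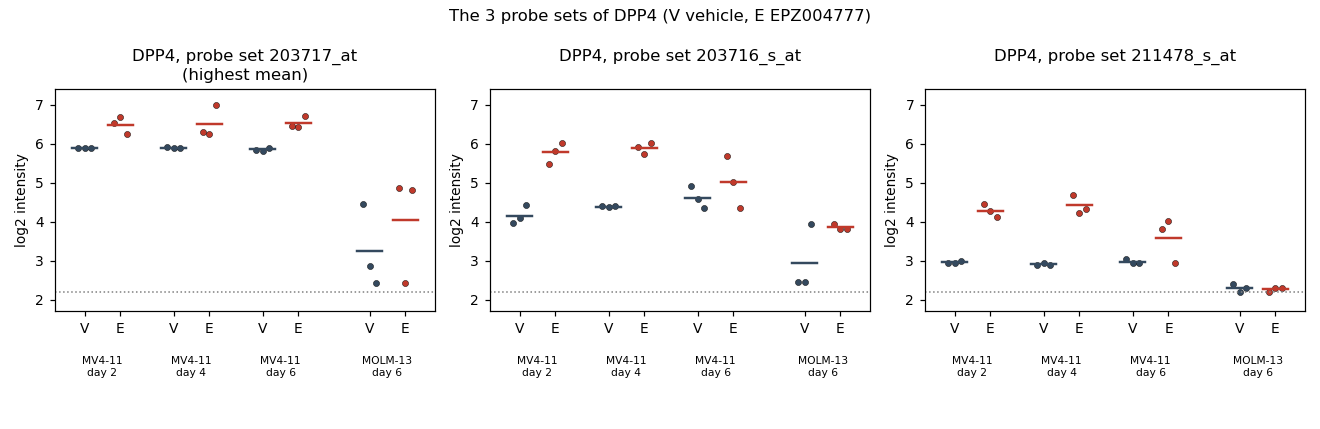
Level of DPP4 (log2 intensity, vertical axis) by each of its 3 probe sets in every array, by line, day and treatment (V vehicle, E EPZ004777), with a bar at the mean of 3 arrays and a dotted line at the lowest value of the table. All 3 probe sets are higher in treated than in vehicle MV4-11 cells on days 2 and 4, with 203717_at at 6.24 to 6.99 in treated cells, and the 3 probe sets differ on day 6 and in MOLM-13 cells.

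MME was not measurable in either line. Both of its probe sets stood at 2.19 in all 24 arrays, with and without the inhibitor, so no change could be measured for it and none was tested.

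Of the NAD enzymes, CD38 fell in MV4-11 cells on days 4 and 6 and was not called in MOLM-13 cells. On day 2 the vehicle arrays were at 7.20, 7.43 and 7.59 and the treated arrays at 7.35, 7.38 and 7.35. The treated arrays lay inside the range of the vehicle arrays, and the change was -0.05 ± 0.12 (adjusted p = 0.896). On day 4 vehicle arrays were at 7.61, 7.63 and 7.72 and treated arrays at 6.26, 6.22 and 6.03, a change of -1.48 ± 0.12 (adjusted p = 9.2e-09). By day 6 vehicle arrays were at 7.06, 7.45 and 7.30 and treated arrays at 5.12, 4.81 and 4.69. The 3 treated arrays of each of these days were well below all vehicle arrays. The day 6 change was -2.39 ± 0.12 (adjusted p = 4.9e-12), a level 5.26-fold lower, with rank 36 among the falls of all genes. In bulk RNA, fewer cells that express a gene and less RNA per cell cannot be told apart, here and for the other genes.

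The fall of CD38 differed between days and between lines. The day 6 change was lower than the day 2 change by 2.35 on the log2 scale, as the tested difference was -2.35 ± 0.18 (adjusted p = 8.74e-09). In MOLM-13 cells the vehicle arrays were at 7.26, 7.36 and 7.12 and the treated arrays at 7.56, 7.41 and 7.16, which overlap. That change was 0.13 ± 0.12 (adjusted p = 0.38), with a 95% interval of -0.13 to 0.39. The day 6 change in MOLM-13 minus that in MV4-11 was 2.52 ± 0.18 (adjusted p = 9.05e-10). Without inhibitor the lines were close in CD38, with a difference of -0.02 ± 0.12 (adjusted p = 0.894) and an interval of -0.28 to 0.24. In the order of group means, treated MV4-11 cells on day 6 (4.88) and on day 4 (6.17) were the 2 lowest, each apart from the next group. At the top, vehicle cells of day 4 (7.65) lay above vehicle cells of day 2 (7.41), and the next 4 groups, from 7.37 to 7.25, were not separated.

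**Figure D3:**
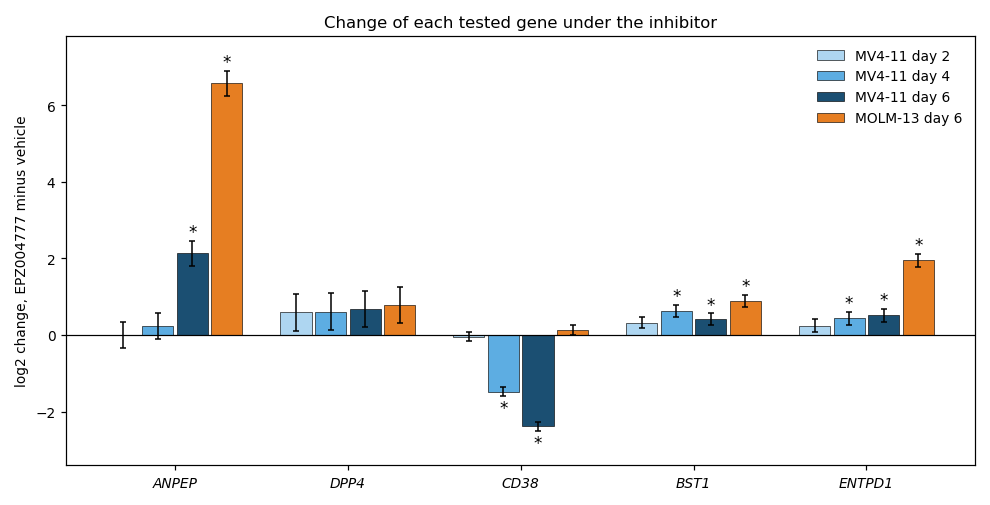
Change under EPZ004777 (log2, treated minus vehicle, vertical axis) of the 5 tested genes in the 3 MV4-11 comparisons (blue) and in MOLM-13 cells (orange), with error bars of 1 standard error and an asterisk at an adjusted p under 0.05. CD38 falls in MV4-11 on days 4 and 6 (-1.48 and -2.39) with 0.13 in MOLM-13, while ANPEP (6.57) and ENTPD1 (1.95) have their highest bars in MOLM-13.

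CD38 is known as a gene that interferon can induce, so the interferon-stimulated genes of the same arrays are given beside it. Of 22 such genes 19 were tested. In the 3 vehicle arrays of MV4-11 on day 4 their median level was 8.61, 7.81 and 8.25, against 3.57 to 5.19 in the vehicle arrays of day 2. In vehicle cells all 19 were called higher on day 4 than on days 2 and 6, with a median of 2.88, beside a median of -0.01 over all genes. CXCL10, an interferon-induced chemokine, was higher there by 5.65 ± 0.44 (adjusted p = 8.5e-08). CD38 was higher in the same comparison by 0.31 ± 0.11 (adjusted p = 0.034), where 28.6% of all genes were called, 13.4% higher and 15.2% lower, and 28.3% had no overlap. That call was lost with no filter (adjusted p = 0.0734), with only the arrays compared (0.0562), after another quantile normalization (0.0716) and with any of 5 arrays left out (0.0631 to 0.139): day 4 vehicle replicates 1 (0.34), 2 (0.32) and 3 (0.28), day 2 vehicle replicate 1 (0.26) and day 6 vehicle replicate 1 (0.26).

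Against the vehicle arrays of days 2 and 6 in place of those of day 4, the day 4 fall of CD38 was -1.17 ± 0.11 (adjusted p = 2.04e-08), while the interferon-stimulated genes had a median of -0.23 in place of -2.80 and 7 of 19 were higher and 3 lower in place of 0 and 16. In that comparison 57.1% of all genes were called, 29.1% higher and 28% lower, and of the 5 enzyme genes 2 were higher and 1 lower. On day 6 the 3 vehicle arrays differed among themselves in the interferon-stimulated genes, at medians of 7.24, 4.85 and 3.56, with CD38 at 7.06, 7.45 and 7.30. The day 6 fall of CD38 was -2.52 to -2.30 with each array left out in turn. What part interferon-stimulated expression had in the level of CD38 was not tested.

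**Figure D4:**
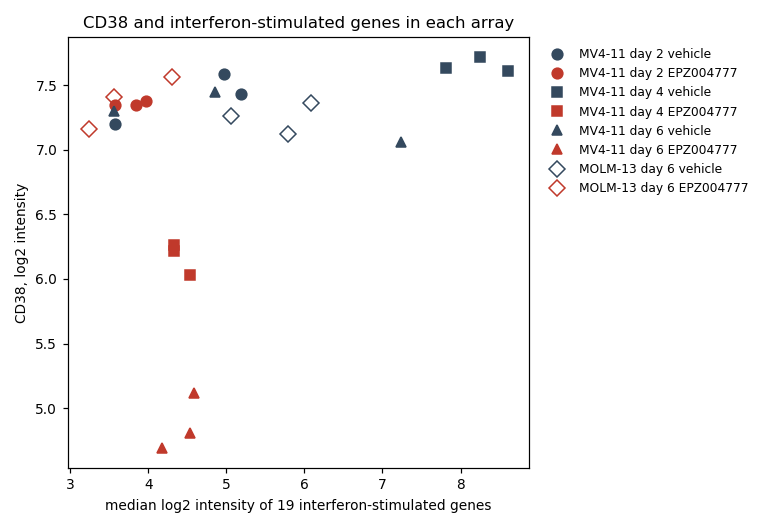
CD38 (log2 intensity, vertical axis) against the median log2 intensity of 19 interferon-stimulated genes (horizontal axis) in each of the 24 arrays, with vehicle in grey, EPZ004777 in red, the day in the symbol and MOLM-13 as open diamonds. The day 4 vehicle arrays lie far to the right (7.81 to 8.61) at a CD38 level of 7.61 to 7.72, and the treated MV4-11 arrays of days 4 and 6 lie low, at 4.69 to 6.26, with interferon-stimulated medians of 4.17 to 4.59.

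BST1, which lies next to CD38 on the same chromosome with 0 genes between them in the RefSeq table, moved the other way. On day 4 vehicle arrays were at 5.68, 5.31 and 5.51 and treated arrays at 6.15, 6.13 and 6.09, without overlap (0.63 ± 0.15, adjusted p = 0.00199). In MOLM-13 cells vehicle arrays were at 5.85, 5.79 and 5.91 and treated arrays at 7.13, 6.53 and 6.56, a rise of 0.89 ± 0.15 (adjusted p = 3.54e-05) that is 1.85-fold. On day 2, where vehicle arrays were at 5.54, 5.68 and 5.69 and treated arrays at 5.95, 6.04 and 5.88, the change of 0.32 ± 0.15 was not called (adjusted p = 0.207), although the arrays did not overlap. With only the 6 arrays of that day in the fit it was called (adjusted p = 0.0259).

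The day 6 call of BST1 in MV4-11 cells was less firm. Vehicle arrays were at 5.68, 5.73 and 5.54 and treated arrays at 6.12, 6.39 and 5.68, so 1 treated array lay within the vehicle range. The change was 0.41 ± 0.15 (adjusted p = 0.0229). It was 0.41 with no filter (adjusted p = 0.0533), 0.41 with only the arrays compared (adjusted p = 0.116) and 0.12 after quantile normalization again (adjusted p = 0.511). Leaving out treated replicate 1 (0.39, adjusted p = 0.0613), treated replicate 2 (0.25, adjusted p = 0.162) or vehicle replicate 3 (0.36, adjusted p = 0.0809) also ended the call.

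The BST1 change in MOLM-13 exceeded that in MV4-11 on day 6 by 0.48 ± 0.21, which was not called (adjusted p = 0.0675). It was called when each array was centred on a common median (0.64, adjusted p = 0.0137) and after quantile normalization again (0.69, adjusted p = 0.0128). It was also called without treated MV4-11 replicate 2 (0.64, adjusted p = 0.0132), treated MOLM-13 replicate 2 (0.58, adjusted p = 0.0349) or treated MOLM-13 replicate 3 (0.57, adjusted p = 0.0421). The lines did not differ past the threshold without inhibitor (0.20 ± 0.15, adjusted p = 0.254). Treated MOLM-13 cells had the highest BST1 level of the 8 groups (6.74), apart from the next. The 3 treated MV4-11 groups and vehicle MOLM-13 cells followed at 6.12 to 5.85 without separation, and the 3 vehicle MV4-11 groups were lowest, at 5.65 to 5.50.

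Of the nucleotide enzymes, ENTPD1 rose mainly in MOLM-13 cells. There the vehicle arrays were at 4.72, 5.19 and 5.11 and the treated arrays at 6.86, 7.38 and 6.61. The groups did not overlap, as was the case for 68.3% of all genes, with a change of 1.95 ± 0.17 (adjusted p = 9.59e-09), 3.86-fold, rank 160 among the rises. In MV4-11 cells on day 6 the vehicle arrays were at 4.29, 4.34 and 4.38 and the treated arrays at 4.92, 5.09 and 4.57, a smaller rise of 0.52 ± 0.17 (adjusted p = 0.0131). That call was lost after quantile normalization again (0.20, adjusted p = 0.309) and without treated replicate 2 (0.41, adjusted p = 0.0711).

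The difference between the lines in the ENTPD1 change was 1.43 ± 0.24 (adjusted p = 7.4e-05). On day 4 in MV4-11 cells, vehicle arrays at 4.35, 4.40 and 4.36 and treated arrays at 4.94, 4.76 and 4.70 gave a change of 0.43 ± 0.17 at the edge of the threshold (adjusted p = 0.0474). The call was lost with any 1 of the 6 arrays left out, vehicle or treated (0.36 to 0.48, adjusted p = 0.0604 to 0.148), and with no filter (adjusted p = 0.107). On day 2 vehicle arrays were at 4.78, 4.34 and 4.34 and treated arrays at 4.94, 4.62 and 4.62, which overlap (0.24 ± 0.17, adjusted p = 0.452).

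Without inhibitor ENTPD1 was higher in MOLM-13 than in MV4-11 cells on day 6 by 0.67 ± 0.17 (adjusted p = 0.00216), where 63.8% of all genes were called. Treated MOLM-13 cells (6.95) stood apart from the other 7 groups, and those, from 5.0 down to 4.34, were not separated from their neighbours. Of its 4 probe sets, 2 stood at 2.19 in all arrays. The remaining one, 228585_at, left that value only in the 3 treated MOLM-13 arrays, at 2.65, 3.27 and 2.61.

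NT5E, the enzyme for the next step after ENTPD1, was not measurable. Its 4 probe sets never passed 2.99, a value reached in 1 vehicle array of MV4-11 on day 4, and its group means lay between 2.19 and 2.46 without separation between neighbours.

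Counted over the 2 tests of a difference between changes, 1 of the 5 genes was called higher and 1 lower for day 6 against day 2 (background 39.6%, with 20.9% higher and 18.7% lower). For MOLM-13 against MV4-11, 3 were called higher and 0 lower (background 52%, with 19.3% higher and 32.7% lower). Between the vehicle cells of the lines on day 6, 1 gene, ENTPD1, was higher in MOLM-13 and 1, DPP4, lower (background 30.7% higher and 33% lower, and 70.4% of all genes without overlap). The comparisons of 1 line share vehicle arrays with the differences built from them, and are given side by side without a test of their likeness.

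The extracellular route from ATP to adenosine goes on to adenosine deaminases, kinases and transporters, and among 10 tested genes of that list 3 rose on day 2, 5 on day 4, 5 on day 6 and 4 in MOLM-13 cells, while 0, 1, 3 and 5 fell. List medians were 0.10, 0.17, 0.18 and -0.21. In these comparisons 12.5%, 46.2%, 62% and 65.8% of all genes were called, and the counts of this list and of those that follow stand beside these shares, with nothing read from the counts alone. Against the vehicle arrays of days 2 and 6, 6 genes of the list were higher and 3 lower on day 4. ADA2, a secreted adenosine deaminase of monocytes and macrophages, rose in all 4 comparisons, by 1.80 ± 0.10 (adjusted p = 4.22e-10), 2.42 ± 0.10 (4.7e-13), 3.22 ± 0.10 (3.51e-15) and, in MOLM-13, 3.61 ± 0.10 (3.64e-16). The classical deaminase ADA rose by 1.15 ± 0.05 on day 4 (adjusted p = 7.44e-13) and 1.28 ± 0.05 on day 6 (adjusted p = 8.31e-14). Genes of adenosine uptake and salvage were among those that fell. SLC29A1, the main nucleoside carrier of the plasma membrane, fell by 1.49 ± 0.22 on day 6 in MV4-11 (adjusted p = 7.25e-06) and fell by 1.99 ± 0.22 in MOLM-13 cells (adjusted p = 1.57e-07). Adenosine kinase (ADK) fell by 1.13 ± 0.10 on day 6 in MV4-11 (adjusted p = 1e-08). ENPP2 (autotaxin), which makes lysophosphatidic acid, rose by 0.77 ± 0.09 on day 2 in MV4-11 (adjusted p = 8.07e-06) and fell by 3.43 ± 0.09 in MOLM-13 (adjusted p = 1.67e-16). ENTPD4, an intracellular relative of ENTPD1, rose by 0.67 ± 0.07 in MOLM-13 cells (adjusted p = 6.21e-08).

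Of 8 tested receptors for ATP, its breakdown products and adenosine, 2, 4, 3 and 3 rose on days 2, 4 and 6 and in MOLM-13 cells, and 0, 1, 0 and 2 fell (12.5%, 46.2%, 62% and 65.8% of all genes called). Against the vehicle arrays of days 2 and 6, 2 receptors in place of 4 were higher on day 4 and 1 was lower. The ATP-gated channel P2RX1 rose in each, by 0.29 ± 0.07 (adjusted p = 0.0083), 0.60 ± 0.07 (7.12e-07), 0.94 ± 0.07 (7.04e-10) and 0.58 ± 0.07 (4.95e-07). P2RX7, the channel that triggers inflammasomes, fell by 2.01 ± 0.26 on day 4 (adjusted p = 3.01e-06). In vehicle cells it was higher on day 4 than on days 2 and 6 by 2.37 ± 0.22 (adjusted p = 6.88e-07). Its change was -0.06 ± 0.26 on day 2 (adjusted p = 0.94), 0.28 ± 0.26 on day 6 (adjusted p = 0.356) and 0.36 ± 0.26 in MOLM-13 cells (adjusted p = 0.228), none of them called.

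Among genes that make and use NAD, the substrate of CD38 and BST1, some moved differently in the lines. Of 12 tested, 1, 5, 6 and 4 rose and 0, 3, 2 and 4 fell in the same order of comparisons (12.5%, 46.2%, 62% and 65.8% of all genes called), and against the vehicle arrays of days 2 and 6, 7 were higher and 2 lower on day 4. QPRT, of NAD synthesis from tryptophan, rose by 1.41 ± 0.15 on day 4 (adjusted p = 2.54e-07) and 1.54 ± 0.15 on day 6 (adjusted p = 3.66e-08) in MV4-11 cells, and fell by 1.25 ± 0.15 in MOLM-13 cells (adjusted p = 5.36e-07). NMNAT3, of the last step of NAD synthesis, rose by 0.49 ± 0.13, 1.22 ± 0.13 and 1.11 ± 0.13 in MV4-11 cells on days 2, 4 and 6 (adjusted p = 0.0173, 2.9e-07 and 5.25e-07). NAMPT, the salvage enzyme, fell by 1.16 ± 0.14 in MOLM-13 cells (adjusted p = 6.14e-07). In MV4-11 cells it fell by 0.74 ± 0.14 on day 4 (adjusted p = 0.00022), when vehicle cells were higher than on days 2 and 6 by 0.53 ± 0.12 (adjusted p = 0.00311), and it was not called on day 2 (0.08, adjusted p = 0.81) or day 6 (-0.15, adjusted p = 0.382). TRPM2, a calcium channel gated by the CD38 product ADP-ribose, fell by 0.59 ± 0.14 on day 4 in MV4-11 (adjusted p = 0.00152) and rose by 0.93 ± 0.14 in MOLM-13 (adjusted p = 6.84e-06). The NAD kinase NADK fell by 0.69 ± 0.06 on day 6 in MV4-11 (adjusted p = 6.27e-09) and rose by 0.46 ± 0.06 in MOLM-13 (adjusted p = 1.38e-06). NADK2 fell in both lines on day 6, by 0.98 ± 0.15 in MV4-11 (adjusted p = 1.47e-05) and by 1.17 ± 0.15 in MOLM-13 (adjusted p = 1.5e-06). Over the list, 8 of 12 were called lower and 3 higher for the change in MOLM-13 minus that in MV4-11, where 32.7% of all genes were lower and 19.3% higher.

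**Figure D5:**
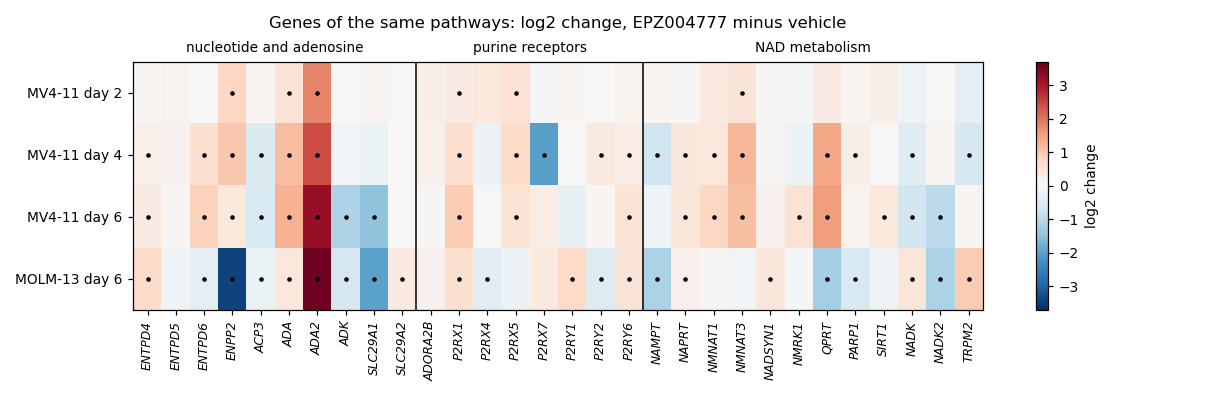
Change under EPZ004777 (log2, treated minus vehicle, colour scale) of the tested genes of 3 lists, nucleotide and adenosine enzymes, purine receptors and NAD metabolism, in the 4 treatment comparisons (rows), with a dot at an adjusted p under 0.05. ADA2 is higher in every row (1.80 to 3.61), ENPP2 is higher on day 2 and lower in MOLM-13 (0.77 and -3.43), and QPRT has opposite signs in the lines on day 6 (1.54 and -1.25).

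Among 19 other tested surface and secreted peptidases, 3, 5, 5 and 6 rose and 1, 4, 3 and 5 fell, with medians of 0.00, -0.01, 0.11 and -0.03 (12.5%, 46.2%, 62% and 65.8% of all genes called). CPM and CPD, carboxypeptidases that remove basic residues from peptide ends, rose on day 4 by 1.21 ± 0.07 (adjusted p = 5.24e-11) and 1.15 ± 0.09 (7.68e-09), and on day 6 by 1.28 ± 0.07 (1.24e-11) and 1.30 ± 0.09 (6.85e-10). In MOLM-13 cells the dipeptidase gene DPEP2 rose by 2.11 ± 0.23 (adjusted p = 1.16e-07) and TRHDE, an aminopeptidase of the family of ANPEP, by 1.18 ± 0.11 (1.33e-08). The membrane protease gene ADAM9 fell by 0.74 ± 0.12 on day 6 in MV4-11 (adjusted p = 3.3e-05) and fell by 1.75 ± 0.12 in MOLM-13 cells (4.26e-10).

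Markers of myeloid and other blood cells were measured in the same arrays. Of 10 tested monocyte and macrophage markers 7, 7, 8 and 10 rose and 0, 1, 0 and 0 fell, with medians of 0.86, 0.68, 0.99 and 1.53, and of 9 granulocyte markers 4, 8, 9 and 5 rose and 0, 0, 0 and 1 fell (12.5%, 46.2%, 62% and 65.8% of all genes called). Against the vehicle arrays of days 2 and 6, 8 monocyte and macrophage markers were higher and 0 lower on day 4, with a median of 1.54 in place of 0.68. On day 2, when 7 of the monocyte and macrophage markers were higher, 0 of the 5 enzyme genes were called. The summed intensity of 13 monocyte and macrophage markers was 18930 to 23660 in vehicle and 46677 to 52215 in treated MOLM-13 arrays, and 25061 to 25773 and 43718 to 52796 in MV4-11 on day 6. The myeloid label of both lines had its markers. Of 6 progenitor markers 3 passed the filter, and CD34, PROM1 and THY1 did not. Of the 3, 1, 1, 1 and 0 rose and 1, 1, 1 and 1 fell, so none was called higher in MOLM-13 cells. KIT, the stem cell factor receptor, rose in MV4-11 cells by 1.14 ± 0.10 on day 2 (adjusted p = 1.27e-07), 2.49 ± 0.10 on day 4 (1.89e-13) and 2.12 ± 0.10 on day 6 (7.42e-13). The cytokine receptor FLT3 fell by 0.33 ± 0.09 on day 2 (adjusted p = 0.0163), fell by 0.77 ± 0.09 on day 4 (7.25e-07), fell by 1.27 ± 0.09 on day 6 (3.74e-10) and fell by 2.05 ± 0.09 in MOLM-13 cells (2.81e-13). Of 10 T and NK cell markers 7 did not pass, CD3E, CD2 and CD8A among them. The 3 that passed rose in MOLM-13 cells, with CD3D at 2.74 ± 0.36 (adjusted p = 1.49e-06), and the summed intensity of the list was 1774 to 1957 in vehicle and 3025 to 3137 in treated arrays. Of the same 3, 1, 1 and 2 rose in MV4-11 cells on days 2, 4 and 6, NKG7 each time, and 0 fell. Of 9 B-cell markers with a probe set 6 did not pass, MS4A1, CD79A and CD22 among them, and the list sum was 941 to 1032 in vehicle and 139 to 153 in treated MOLM-13 arrays. In MV4-11 cells the B-cell sum was higher in all treated arrays of a day than in its vehicle arrays, at 507 to 573 in vehicle and 764 to 827 in treated arrays on day 2, 323 to 370 and 971 to 1081 on day 4, and 504 to 598 and 816 to 1243 on day 6. IGLL1, of the surrogate light chain of early B cells, rose there by 0.57 ± 0.15 (adjusted p = 0.0138), 1.87 ± 0.15 (3.77e-09) and 1.04 ± 0.15 (4.67e-06), and fell by 3.67 ± 0.15 in MOLM-13 cells (9.07e-14). PAX5 went both ways in MV4-11 cells, higher by 0.85 ± 0.26 on day 2 (adjusted p = 0.0378) and lower by 0.79 ± 0.26 on day 4 (0.018). Of the 3 tested B-cell markers, 2, 1, 1 and 0 rose and 0, 1, 0 and 1 fell, with medians of 0.57, -0.11, 0.2 and 0.09. Against the vehicle arrays of days 2 and 6, 1 of the 3 was higher and 0 lower on day 4, so PAX5 was not called lower there. The part of these markers in the changes of the enzyme genes was not tested.

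The genes whose 8 group means were most like those of each enzyme gene were named by Pearson's r over all tested genes, as a description. Because they were picked for that likeness in the same arrays, changes like those of the enzyme gene follow from the choice. Their p-values below are no independent support for a difference. Most like ANPEP were KCTD17 (0.998), GPRIN2 (0.994) and C6orf47 (0.993). KCTD17 rose by 0.71 ± 0.10 on day 6 in MV4-11 (adjusted p = 8.04e-06) and by 2.36 ± 0.10 in MOLM-13 (3.94e-13). Its mean was 4.14 and 5.73 in those treated groups and below the filter level of 4 in all other groups. Nearest to CD38 were AKT1S1 (0.975), H2AC14 (0.973) and RIMOC1 (0.972), and AKT1S1, an inhibitor of mTOR complex signalling, fell by 0.61 ± 0.13 on day 4 (adjusted p = 0.000453) and 0.77 ± 0.13 on day 6 (2.38e-05). BST1 was matched by TLE1 (0.983), CD244 (0.983) and SLC39A11 (0.981), of which CD244, a receptor of NK cells and monocytes, rose by 1.25 ± 0.08 on day 4 (adjusted p = 9.59e-11) and 1.95 ± 0.08 in MOLM-13 (5.91e-14). For ENTPD1 they were DGKZ (0.995), TLR9 (0.993) and ADPGK (0.991), and TLR9, the receptor for bacterial DNA, rose by 1.38 ± 0.21 in MOLM-13 cells (adjusted p = 7.78e-06). For DPP4 they were TINF2 (0.997), SURF1 (0.996) and MSRA (0.996). These 8 points share their arrays and normalization, and for ANPEP and ENTPD1 1 group, treated MOLM-13 cells, lies far from the rest. For DPP4 the treated and vehicle MOLM-13 groups (4.04 and 3.26) lie below all MV4-11 groups (5.85 to 6.53), so its r largely reflects the line.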

How the data were processed

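Total RNA of 24 samples was amplified, biotin-labeled and hybridised to arrays of 54675 probe sets. The authors made the deposited intensity values with GCRMA, per the submitters' processing notes, version not given in the sources used here. They were linear, from 4.55 to 71593, so log2 was taken with a pseudocount of 0. Of the probe sets 41097 had 1 gene symbol, 1801 several and 11777 none. The highest-mean probe set stood for a gene, and genes with a log2 level of at least 4 in at least 3 arrays were kept. Group means of all 24 arrays were fitted in R 4.3.3 with the linear models and moderated two-sided tests of limma 3.58.1, adjusted by Benjamini-Hochberg over 10963 genes, and the steps were tested on simulated data. An exact test of 3 against 3 arrays cannot go below 0.1. The labels call the replicates biological but do not say whether they came from separate cultures, so p-values measure the spread between these samples. No 2 arrays were identical (0 pairs). Python 3.11.15 drew figures and read promoters. The members and lists were chosen with earlier results of these data known. Named genes are the members, up to 2 rises and 2 falls of each list per treatment comparison among called genes, and the 3 genes most like each tested member, and the text gives examples of these. Alternatives were no filter or one at log2 6, other fits, normalizations, probe sets and call rules, the replicate number as a block, and each array left out.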

Additional observations from a re-analysis of the deposited data

Results flagged for a closer look

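The change under EPZ004777 differed between days or lines for 3 of the genes by a test of the difference itself (limma, adjusted over 10963 genes), from 3 arrays in each group. Of all genes, 39.6% were called for the difference between days and 52% for that between lines, so the count itself is not a result about these enzymes. ANPEP changed more on day 6 than on day 2 in MV4-11 cells by 2.13 ± 0.46 (adjusted p = 0.00127). For CD38 that difference was -2.35 ± 0.18 (adjusted p = 8.74e-09). On day 6 the change in MOLM-13 minus that in MV4-11 was 4.44 ± 0.46 for ANPEP (adjusted p = 2.17e-07), 2.52 ± 0.18 for CD38 (adjusted p = 9.05e-10) and 1.43 ± 0.24 for ENTPD1 (adjusted p = 7.4e-05). In each line and day behind these differences all 3 treated arrays lay on the same side of the vehicle arrays, except for ANPEP and CD38 on day 2 and CD38 in MOLM-13 cells, where the arrays overlapped. Of all genes, 38.9% had no overlap on day 2 and 64.8% on day 6 in MV4-11 cells, and 68.3% in MOLM-13 cells. All 5 differences kept their direction and stayed past the threshold under every alternative in which the gene was tested. For ANPEP this is no independent support for a difference, as it passed the filter through treated arrays alone.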

How the results depend on the processing

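Of the values of single enzyme genes under the alternatives, 618 kept their direction and side of the threshold, 33 lost a call, 24 gained one and 3 reversed. The reversals were those of DPP4 with another probe set, at -1.22 and -0.70 for day 6 minus day 2 and -0.65 for MOLM-13 minus MV4-11. With a minimum of 2-fold, 143, 768, 1278 and 1400 genes were called on days 2, 4 and 6 and in MOLM-13 cells (1372, 5067, 6799 and 7214 without it), 767 and 1466 for the differences between days and between lines (4340 and 5703), 162 for vehicle cells of day 4 (3139) and 1862 for vehicle cells of the lines (6992). Enzyme genes called higher on day 2 were 2 with only the arrays compared and 1 with the mean of probe sets, in place of 0. On day 4 they were 1 with no filter, with a trended and robust variance prior, after quantile normalization again and with a common median, and 0 at 2-fold, in place of 2, and on day 6 they were 1 after quantile normalization and at 2-fold, in place of 3. In vehicle cells of day 4 they were 0 with no filter, only the arrays compared, quantile normalization and 2-fold, in place of 1. Between the vehicle lines they were 2 with only the arrays compared and quantile normalization, and 0 with the mean of probe sets, where 4 were tested and ENTPD1 was not among them, and at 2-fold, in place of 1. The cause was not tested, beyond fewer arrays, fewer genes tested or a stricter rule by construction. With single arrays left out, genes called ranged from 912 to 981 on day 2 and from 1872 to 3034 for vehicle cells of day 4, the lowest without day 2 vehicle replicate 1 and day 4 vehicle replicate 3. Enzyme genes called higher were 1 on day 4 in each case, 1 to 3 on day 6 (1 without treated replicate 2) and 0 to 1 in vehicle cells of day 4. Centring on a common median moved the median of all genes for the difference between lines from -0.096 to 0.062, and the calls of ANPEP, CD38 and ENTPD1 there remained. Same-numbered samples did not deviate together (12 pairs, r from -0.26 to 0.1), so the numbers were not taken as pairs. With the replicate number as a replicate block, BST1 passed in the difference between lines (0.48, adjusted p = 0.0447), and no other call of an enzyme gene changed. The block could not be fitted for the 2 comparisons of vehicle groups and was not run there. Signals near 2.19 limit what can be said of ANPEP in vehicle cells, NT5E and MME.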
